A study of Homo sapiens with 16 samples.

Results

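The 7 drug efflux transporters described here belong to the C and G subfamilies of the ATP-binding cassette (ABC) family: ABCC1, ABCC2, ABCC3, ABCC4, ABCC5, ABCC10 and ABCG2. They were taken by gene symbol from a table of 23228 gene rows, and all 7 were found and tested. The libraries came from MDA-MB-231, a mesenchymal triple-negative human breast cancer line, and the 16 of them form 8 groups of 2. The cells received the solvent DMSO, 1 µM sorafenib, methyl methanesulfonate (MMS), or a combination in which sorafenib was given 12 h before MMS. MMS was used at 40 µg/mL according to the series text and at 40 µM according to the sample labels. Each treatment was sampled at 8 h and at 24 h, counted from the MMS addition in the combination, so that combination cells had 12 h more of sorafenib than sorafenib cells of the same time. In GRCh38 (GENCODE v29; the reads were aligned to hg19) ABCC1 lies at chr16:15949577-16143074 and ABCC3 at chr17:50634777-50692252 on the plus strand, as do ABCC2 at chr10:99782640-99852594 and ABCC10 at chr6:43427366-43450430. ABCC4 lies at chr13:95019829-95301475, ABCC5 at chr3:183919934-184018015 and ABCG2 at chr4:88090264-88231322, on the minus strand.

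ABC transporters use ATP to move substrates across membranes, and those of the C and G subfamilies carry drugs, their conjugates and signalling molecules out of cells. ABCC1, ABCC2 and ABCC3 export conjugates with glutathione, glucuronate or sulfate, ABCC4 and ABCC5 export nucleotides and their analogues, ABCC10 exports taxanes, and ABCG2 works as a dimer that exports topotecan, mitoxantrone and urate. MMS methylates DNA bases, and sorafenib inhibits RAF and growth factor receptor kinases and has been described as a substrate of ABCG2. Several ABCC genes have been described as targets of NFE2L2 (NRF2), the activator of genes with an antioxidant response element, and ABCG2 as a target of AHR, the receptor that acts through xenobiotic response elements.

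The 250 bases before the RefSeq transcription start (GRCh38.p14) were available for 5 of the 7 genes, and not for ABCC1 and ABCC3. These windows were searched on both strands for the antioxidant response element core TGACNNNGC, the xenobiotic response element core GCGTG, the amino acid response element core TGATGNAA and the GC box GGGCGG, and no searched motif is contained in another. The 3 windows printed are shown because their genes differed in behaviour under MMS: ABCC2 was called higher at 8 h, ABCC4 had negative log2 changes in all 4 comparisons of MMS-treated cells with DMSO, and ABCC5 was called lower at 8 h and lay above DMSO at 24 h. Negative changes in all 4 were also those of ABCC1 and ABCG2. For ABCC4 only the change under the combination at 24 h was called. Capitals mark motif matches on either strand, and each sequence is written 5′ to 3′ on the strand of the gene.
ABCC2, chr10:99782390-99782639, plus strand: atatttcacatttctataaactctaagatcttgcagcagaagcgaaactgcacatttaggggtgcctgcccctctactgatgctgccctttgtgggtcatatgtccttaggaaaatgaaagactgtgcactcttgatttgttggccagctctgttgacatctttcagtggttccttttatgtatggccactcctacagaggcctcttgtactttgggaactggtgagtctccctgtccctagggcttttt
ABCC4, chr13:95301452-95301701, minus strand: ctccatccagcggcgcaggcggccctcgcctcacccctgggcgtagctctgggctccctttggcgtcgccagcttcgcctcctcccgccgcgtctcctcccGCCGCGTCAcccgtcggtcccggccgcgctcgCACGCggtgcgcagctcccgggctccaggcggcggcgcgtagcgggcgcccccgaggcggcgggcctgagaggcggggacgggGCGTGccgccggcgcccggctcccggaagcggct
ABCC5, chr3:184017885-184018134, minus strand: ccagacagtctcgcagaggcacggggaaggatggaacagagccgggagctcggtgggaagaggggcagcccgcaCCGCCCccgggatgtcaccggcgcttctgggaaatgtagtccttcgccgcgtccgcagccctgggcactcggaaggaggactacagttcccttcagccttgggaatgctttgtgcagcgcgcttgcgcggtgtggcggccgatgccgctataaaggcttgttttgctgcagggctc

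The ABCC4 window held 1 antioxidant response element core, which starts 149 bases before the transcription start, and 2 xenobiotic response element cores at 117 and 34 bases. Its GC content was 80.4%, against 64.8% for the ABCC5 window and 45.6% for the ABCC2 window. The ABCC5 window held a GC box at 176 bases and none of the other motifs, and the ABCC2 window held no match. Of the 35116 promoter windows in the RefSeq table, 10.9% held the antioxidant response element core, 32.2% the xenobiotic response element core, 3.14% the amino acid response element core and 42.6% the GC box. RefSeq gives 2 start sites for ABCC10, where 1 window held 3 GC boxes and the other an antioxidant response element core and 2 xenobiotic response element cores. It gives 5 start sites for ABCG2, of which 3 windows held 2 xenobiotic response element cores each and 2 of those also 2 GC boxes. The 2 windows with GC boxes (chr4:88158860-88159109 and chr4:88158910-88159159) overlap, and their matches are the same sites, counted from different start sites. A match describes letters in a window, and binding was not measured.

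In these libraries the gene counts summed to between 16774156 and 26448212 (median 20348720). The mesenchymal markers of the line were present in every library: VIM was at 1479 to 2476 CPM (counts scaled to the summed gene counts of their library, per 1000000) and AXL at 784 to 1281 CPM. The oestrogen receptor gene ESR1 was at 0 to 0.224 CPM and the hepatocyte marker TTR was at 0 in all 16 libraries, whereas the luminal keratin KRT19 was not low, at 94.7 to 302 CPM. The immune and endothelial markers CD14 and PECAM1 reached 14.0 and 6.81 CPM, with medians of 2.87 and 1.03 CPM. The others in these lists had lower maxima, 1.36 CPM for PTPRC, 0.119 for CD3E, 2.24 for CDH5 and 0.201 for VWF. Of the other luminal markers, GATA3 was at 4.65 to 10.7 CPM and CDH1 at 0.241 to 9.34 CPM. PGR and FOXA1 reached 0.674 and 1.74 CPM. Titles of the libraries start with MDA231 in 1 library of each group and with MDAMB231 in the other, and libraries with the same start deviated together. Values from a fit with this title start as a block (called blocked below) are therefore given wherever they change the call of a transporter, and as counts for the gene lists under MMS and the combination.

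**Figure D1:**
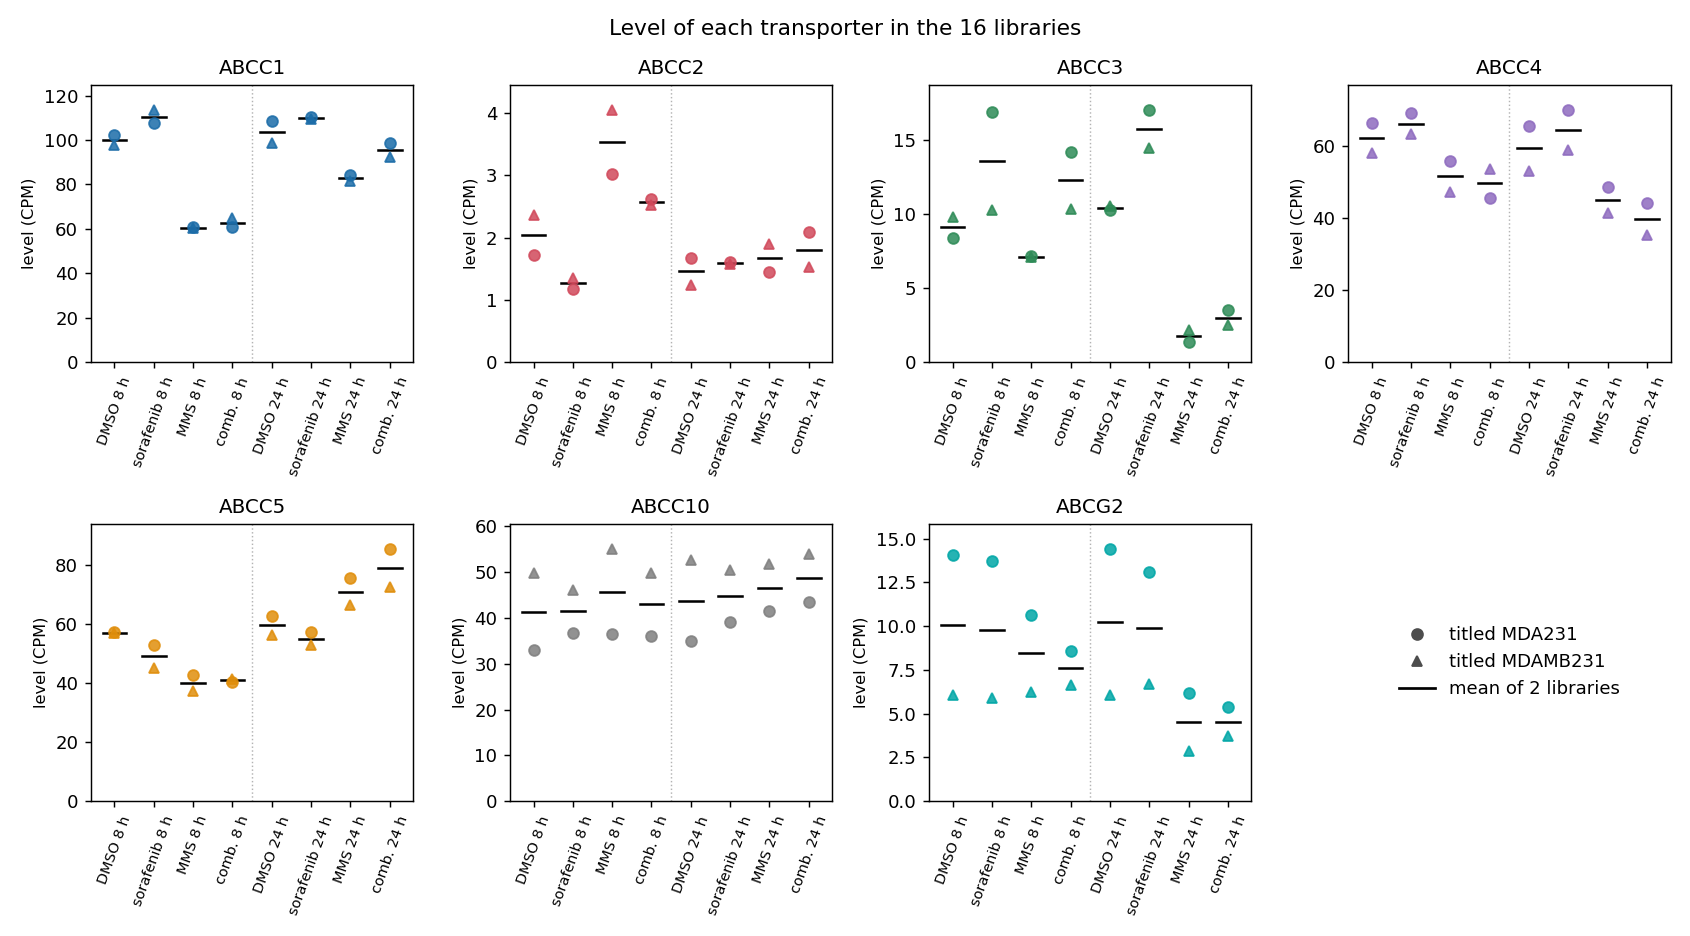
Level in CPM (linear axis from 0) of each transporter in the 16 libraries, with circles for titles that start with MDA231, triangles for MDAMB231 and a line at the mean of the 2 libraries of a group. The ABCC3 libraries of MMS and of the combination at 24 h lie between 1.39 and 3.53 CPM, below all other ABCC3 libraries, and the 2 title starts stand apart in every group for ABCC10 and ABCG2.

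Levels per length were compared as CPM per kilobase of exon (GENCODE v29 exon lengths). ABCC1 RNA was the most abundant member in DMSO cells at 8 h, with 13.2 ± 0.403 CPM per kb (SD, n = 2). ABCC4, ABCC10 and ABCC5 followed with 7.21 ± 0.691, 5.11 ± 1.47 and 5.0 ± 0.0108 CPM per kb. ABCG2 had 2.0 ± 1.12, ABCC3 0.945 ± 0.100 and ABCC2 0.261 ± 0.0578 CPM per kb. The difference between ABCC10 and ABCC5 was smaller than the spread of ABCC10. ABCC2 RNA rested on few reads, between 22 and 84 per library, and the other 6 had at least 24 per library. ABCC3 also rested on few reads at 24 h, with 24 and 50 in the MMS libraries and 93 and 57 in the combination libraries.

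The summed level of the 7 transporters was lower 8 h after MMS than in DMSO cells, and ABCC1 alone went from 13.2 to 7.99 CPM per kb. The sum was 33.7 ± 0.598 CPM per kb in DMSO cells (SD, n = 2), 26.0 ± 0.0107 in MMS cells and 26.1 ± 1.79 in combination cells at 8 h. At 24 h it was 34.5 ± 2.0, 29.4 ± 0.875 and 31.6 ± 1.55 CPM per kb in the same order. ABCC1 made up 39.2 ± 0.501% of the sum in DMSO cells at 8 h and 30.7 ± 0.199% in MMS cells. ABCC5 made up 15.1 ± 0.294% in DMSO cells at 24 h, 21.1 ± 1.26% in MMS cells and 21.9 ± 1.43% in combination cells. No test was made on the sum or the shares. In bulk RNA, fewer cells and less RNA per cell cannot be told apart, and values are relative to the total of each library.

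**Figure D2:**
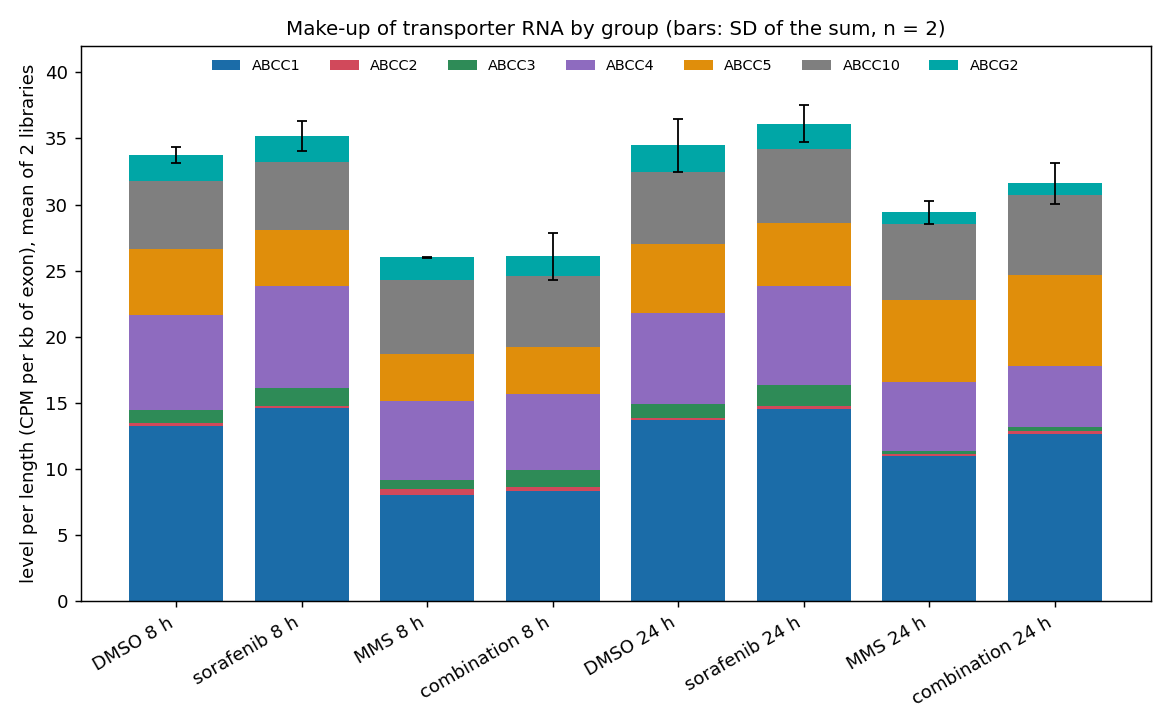
Summed level per length (CPM per kb of exon, linear axis from 0) of the 7 transporters in each group, stacked by gene as means of 2 libraries, with the SD of the sum as error bars. The MMS and combination stacks at 8 h reach 26.0 and 26.1 CPM per kb, against 33.7 in DMSO cells of that time.

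Changes were tested with edgeR's quasi-likelihood test over 13948 genes, and a gene was called at a Benjamini-Hochberg adjusted p under 0.05. For MMS against DMSO at 8 h, 3 of 7 transporters were called, 1 higher and 2 lower. Of all genes tested in this comparison 26.5% were called, 14.5% higher and 12% lower. At 24 h 2 of 7 were called, both lower, where 31.5% of all genes were called, 15.2% higher and 16.3% lower. In the blocked fit at 24 h 4 of 7 were called, against 48.3% of all genes. The median log2 change of the 7 was -0.23 at 8 h and -0.37 at 24 h, against -0.0042 and 0.0033 over all genes.

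ABCC3, an exporter of glucuronides and bile salts, had the largest change among the 7, and it was a late change. The DMSO libraries at 24 h had 10.3 and 10.5 CPM of ABCC3, and the MMS libraries had 1.39 and 2.16 CPM (24 and 50 reads). Both MMS libraries were thus below both DMSO libraries by more than the spread within either group. ABCC3 fell by 2.59 on the log2 scale (SE 0.288, 6.0-fold lower, adjusted p = 8.82e-05), and its adjusted p stayed under 0.05 in all 11 alternatives. At 8 h the DMSO libraries had 8.41 and 9.77 CPM and the MMS libraries 7.15 and 7.08 CPM. The groups did not overlap at 8 h either, but ABCC3 did not pass the test there (log2 change -0.32, SE 0.256, adjusted p = 0.413). Here and below, a lack of overlap describes 2 libraries per group, and its share over all genes was not counted.

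The difference between the MMS effect at 24 h and at 8 h was itself tested. Of the 7 transporters 2 passed, where 9.13% of all genes were called: ABCC5 with a higher effect at 24 h (3.53% of all genes) and ABCC3 with a lower one (5.6%). For ABCC3 the difference was -2.27 (SE 0.383, adjusted p = 0.00425), and its adjusted p stayed under 0.05 in all 15 alternatives. For ABCC5 it was 0.67 (SE 0.174, adjusted p = 0.0319), and 6 of 15 alternatives lost this call. These were the fit on the libraries compared (adjusted p = 0.0591) and those without DMSO replicate 1 (0.101) or 2 (0.0664) at 8 h, MMS replicate 2 at 8 h (0.121), MMS replicate 1 at 24 h (0.124) or DMSO replicate 2 at 24 h (0.0995). In the blocked fit 4 of 7 passed, against 25.5% of all genes, since ABCC1 (0.31, adjusted p = 0.0368) and ABCG2 (-1.05, adjusted p = 0.00959) were added. Without the block ABCC1 had a difference of 0.31 (adjusted p = 0.11) and ABCG2 of -1.04 (adjusted p = 0.493). ABCC2 and ABCC4 had differences of -0.67 (adjusted p = 0.324) and -0.22 (adjusted p = 0.632).

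**Figure D3:**
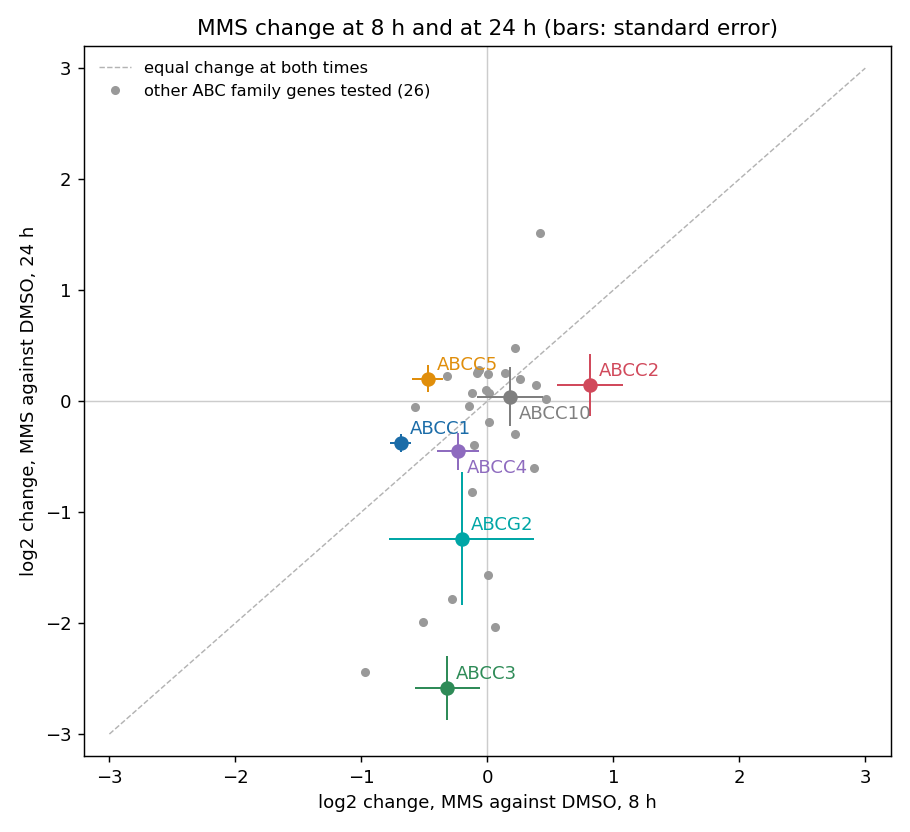
The log2 change of MMS against DMSO at 8 h (x axis) and at 24 h (y axis), both linear in log2 units, for the 7 transporters with standard errors and, in grey, for 26 other ABC family genes that were tested. The dashed line marks equal change, and ABCC3 lies far below it at -0.32 and -2.59.

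ABCC1, the exporter of glutathione conjugates such as leukotriene C4, fell at both times. The DMSO libraries at 8 h had 102 and 98.0 CPM and the MMS libraries 60.8 and 60.3 CPM. ABCC1 fell by 0.69 on the log2 scale at 8 h (SE 0.0812, 1.61-fold lower, adjusted p = 8.14e-05). At 24 h the values were 109 and 98.5 CPM in DMSO and 84.1 and 81.7 CPM in MMS libraries, again without overlap. The fall at 24 h was 0.37 (SE 0.0808, 1.30-fold lower, adjusted p = 0.00445). This call was lost when only the 4 libraries compared entered the fit (adjusted p = 0.0559).

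ABCC2, the conjugate pump of the apical membrane of hepatocytes, was called higher at 8 h. The DMSO libraries had 1.73 and 2.37 CPM and the MMS libraries 3.02 and 4.04 CPM, without overlap. The log2 change was 0.81 (SE 0.264, 1.76-fold higher, adjusted p = 0.0387). This call was lost in 7 of 10 alternatives, and the adjusted p-values over all 10 ranged from 0.00839 to 0.227. Among those that lost it were the fits without DMSO replicate 1 (adjusted p = 0.221), DMSO replicate 2 (0.0572) and MMS replicate 2 (0.227), and DESeq2 (0.0989). At 24 h the DMSO libraries had 1.68 and 1.25 CPM and the MMS libraries 1.45 and 1.90 CPM. These groups overlapped, and the log2 change was 0.14 (SE 0.282, adjusted p = 0.739).

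ABCC5, an exporter of cyclic nucleotides and nucleoside analogues, was called lower at 8 h and not at 24 h. It had 57.3 and 57.1 CPM in the DMSO libraries at 8 h and 43.0 and 37.4 CPM in the MMS libraries. It fell by 0.47 on the log2 scale (SE 0.123, 1.39-fold lower, adjusted p = 0.0138). Without replicate 1 of DMSO or replicate 2 of MMS this call was lost (adjusted p = 0.0726 and 0.114). At 24 h ABCC5 had 62.9 and 56.4 CPM in DMSO and 75.6 and 66.6 CPM in MMS libraries, so that both MMS libraries now lay above both DMSO libraries. The log2 change at 24 h was 0.20 (SE 0.122, adjusted p = 0.238) and missed the threshold.

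ABCC4, which exports prostaglandins as well as cyclic nucleotides, had 66.5 and 58.0 CPM in the DMSO libraries at 8 h and 55.8 and 47.4 CPM in the MMS libraries (log2 change -0.23, SE 0.164, adjusted p = 0.344). At 24 h it had 65.5 and 53.2 CPM in DMSO and 48.7 and 41.4 CPM in MMS libraries. Both comparisons were free of overlap, and within each title start the MMS library was the lower of the 2. How many of all genes share these patterns was not counted, so they do not set ABCC4 apart. The log2 change at 24 h was -0.45 (SE 0.166, adjusted p = 0.0569). It passed the test in the blocked fit (adjusted p = 0.00221), with DESeq2 (adjusted p = 0.0444), without the filter on low counts (adjusted p = 0.0474) and without DMSO replicate 2 (adjusted p = 0.047).

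ABCG2 and ABCC10 differed between the title starts in every group. ABCG2 had 14.1 CPM in the MDA231 library and 6.07 CPM in the MDAMB231 library of DMSO at 8 h. It was higher in the MDA231 library in 8 of 8 groups, with a median ratio of 2.07 (range 1.29 to 2.37). ABCC10 was lower in the MDA231 library in 8 of 8 groups, with a median ratio of 0.75 (range 0.662 to 0.805). In the other 5 genes the order of the title starts changed between groups.

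At 24 h ABCG2 had 14.4 and 6.08 CPM in the DMSO libraries and 6.20 and 2.85 CPM in the MMS libraries. The groups overlapped, yet within each title start the MMS library was lower, by 1.22 on the log2 scale for MDA231 and by 1.09 for MDAMB231. The fit without a block gave a log2 change of -1.24 (SE 0.6, adjusted p = 0.139). The blocked fit gave -1.22 (SE 0.207, adjusted p = 8.77e-05). Without the block, leaving out DMSO replicate 1 gave -0.48 and leaving out MMS replicate 1 gave -1.93, the ends of the range over the 4 libraries. At 8 h ABCG2 had 10.7 and 6.26 CPM in the MMS libraries (log2 change -0.20, SE 0.575, adjusted p = 0.84). ABCC10 ranged from 32.9 to 55.0 CPM over the 16 libraries, with log2 changes under MMS of 0.18 at 8 h (SE 0.264, adjusted p = 0.678) and 0.040 at 24 h (SE 0.265, adjusted p = 0.93). Its exons overlap those of DLK2, on the opposite strand, by 79 bases in GENCODE v29, and the exons of the other 6 genes overlapped no other gene.

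**Figure D4:**
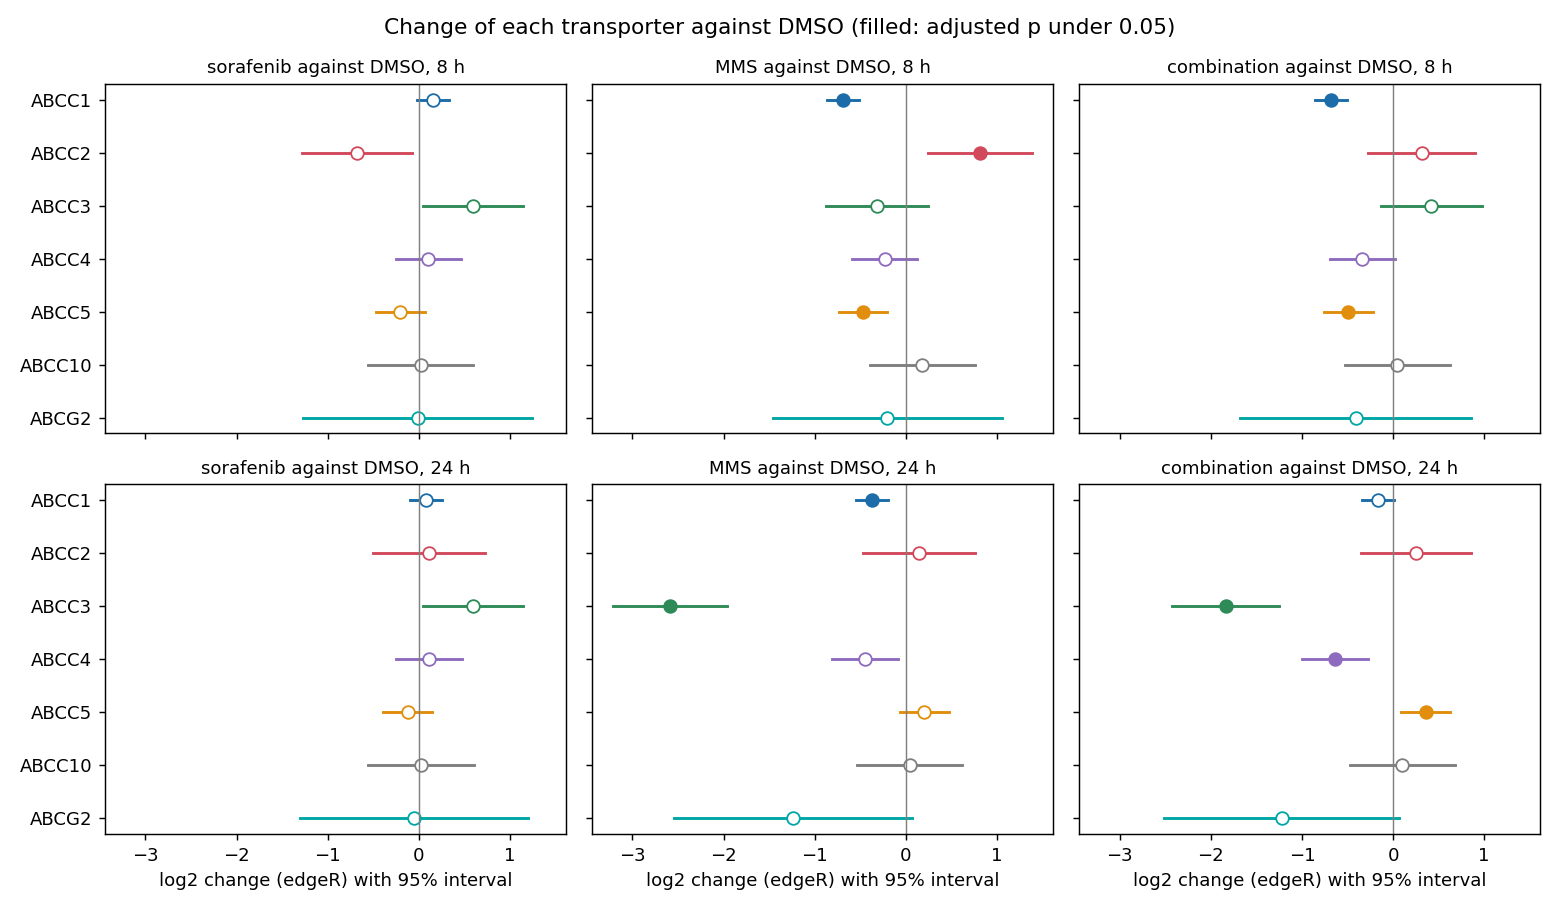
The log2 change against DMSO of each transporter (points) with 95% intervals (lines) for sorafenib, MMS and the combination at 8 h (upper row) and 24 h (lower row), without a block. Filled points have an adjusted p under 0.05: none under sorafenib, 3 and 2 under MMS, and 2 and 3 under the combination.

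Sorafenib alone was compared with DMSO, and no transporter was called with edgeR. Of the 7, 0 were called at 8 h, where 0.394% of all genes were called, and 0 at 24 h, where 0.817% were. At an unadjusted p under 0.05 there were 2 transporters at 8 h and 1 at 24 h, and 1060 and 1260 of the 13948 genes tested. DESeq2 called 0 transporters at either time. ABCC3 had the highest log2 change at both times, 0.59 at 8 h (95% interval 0.042 to 1.14, adjusted p = 0.599) and 0.59 at 24 h (95% interval 0.040 to 1.14, adjusted p = 0.5). Its sorafenib libraries had 16.8 and 10.2 CPM at 8 h and 17.0 and 14.4 CPM at 24 h, above the DMSO libraries of the same time in all 4 cases. The log2 change at 8 h was 0.18 without sorafenib replicate 1 and 0.91 without sorafenib replicate 2. The lowest log2 changes were those of ABCC2 at 8 h (-0.68, 95% interval -1.29 to -0.075, adjusted p = 0.567) and of ABCC5 at 24 h (-0.12, 95% interval -0.39 to 0.15, adjusted p = 0.917). ABCC2 had 1.18 and 1.35 CPM in the sorafenib libraries at 8 h, both below its DMSO libraries.

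The combination was compared with the same DMSO libraries, which both sets of changes therefore share. At 8 h 2 of 7 transporters were called, both lower, where 24.3% of all genes were called, 12.5% higher and 11.8% lower. ABCC1 had 60.7 and 65.1 CPM in the combination libraries and fell by 0.68 on the log2 scale (SE 0.0816, adjusted p = 0.000109). ABCC5 had 40.6 and 41.5 CPM and fell by 0.49 (SE 0.124, adjusted p = 0.0125). The ABCC5 call was lost without DMSO replicate 1 (adjusted p = 0.0682) or combination replicate 1 (adjusted p = 0.0715). The blocked fit called 3 of 7, against 39.5% of all genes, adding ABCC4 (-0.32, adjusted p = 0.0238), which had 45.5 and 53.8 CPM and -0.34 (SE 0.166, adjusted p = 0.17) without the block. ABCC3 had 14.2 and 10.3 CPM, both above DMSO (log2 change 0.42, SE 0.254, adjusted p = 0.272). ABCC2 had a log2 change of 0.31 (adjusted p = 0.455), ABCG2 of -0.41 (adjusted p = 0.678) and ABCC10 of 0.047 (adjusted p = 0.927).

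At 24 h 3 of 7 transporters were called under the combination, where 33.4% of all genes were: ABCC5 was higher (16.2% of all genes) and ABCC3 and ABCC4 were lower (17.2%). ABCC3 had 3.53 and 2.49 CPM in the combination libraries and fell by 1.83 on the log2 scale (SE 0.27, 3.56-fold lower, adjusted p = 0.000373). This call held in all 11 alternatives. ABCC4 had 44.1 and 35.2 CPM and fell by 0.63 (SE 0.166, 1.55-fold lower, adjusted p = 0.0116), a call lost without DMSO replicate 1 (adjusted p = 0.0959) or combination replicate 2 (adjusted p = 0.109). ABCC5 had 85.6 and 72.8 CPM and rose by 0.36 (SE 0.122, 1.28-fold higher, adjusted p = 0.0402), a call lost in 4 of 11 alternatives. The 4 were the fit on the libraries compared (adjusted p = 0.0877), and those without DMSO replicate 1 (0.053), DMSO replicate 2 (0.212) or combination replicate 1 (0.27). ABCC5 was thus called lower at 8 h and higher at 24 h under the combination, and the difference between these 2 effects was not tested.

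ABCG2 had 5.38 and 3.72 CPM in the combination libraries at 24 h, below both DMSO libraries. Its log2 change was -1.22 (SE 0.592, adjusted p = 0.136) without the block and -1.18 (SE 0.2, adjusted p = 8.02e-05) with it. Without the block, the change was -0.46 when DMSO replicate 1 was left out and -1.71 when DMSO replicate 2 was. The blocked fit called 4 of 7 here, against 50.5% of all genes. ABCC1 had 98.8 and 92.4 CPM at 24 h and overlapped DMSO (log2 change -0.17, SE 0.0804, adjusted p = 0.134). ABCC2 and ABCC10 had log2 changes of 0.25 (adjusted p = 0.518) and 0.10 (adjusted p = 0.804).

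The combination was also compared with MMS alone, which asks what sorafenib given from 12 h before MMS added. Any effect of these 12 h themselves cannot be told apart from that of sorafenib. Of the 7 transporters 0 were called with edgeR at 8 h, where 0.624% of all genes were, and 0 at 24 h, where 0.122% were. At an unadjusted p under 0.05 there were 1 transporter at 8 h and 2 at 24 h, and 1921 and 689 of the 13948 genes tested. DESeq2 called 0 transporters at either time. ABCC3 was above MMS alone in all 4 combination libraries, with log2 changes of 0.73 at 8 h (95% interval 0.18 to 1.29, adjusted p = 0.222) and 0.75 at 24 h (95% interval 0.11 to 1.39, adjusted p = 0.861). The blocked fit called ABCC3 at 8 h (0.73, adjusted p = 0.0227), 1 of 7 against 9.51% of all genes, and did not call it at 24 h (adjusted p = 0.304). With single libraries left out, the unblocked change ranged from 0.50 to 0.94 at 8 h and from 0.47 to 1.09 at 24 h. The lowest log2 changes were those of ABCC2 at 8 h (-0.50, adjusted p = 0.432) and of ABCC4 at 24 h (-0.18, 95% interval -0.54 to 0.18, adjusted p = 1.00).

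Interaction terms asked whether the effects of sorafenib and MMS differed from their sum on the log2 scale. Combination cells had 12 h more of sorafenib than sorafenib cells, so an interaction cannot be told apart from the longer exposure. With edgeR 0 of 7 transporters and 0% of all genes were called at 8 h and 0 of 7 and 0% at 24 h. At an unadjusted p under 0.05 there were 0 transporters at either time, and 505 and 304 of all genes. DESeq2 called 0 transporters and 1 gene at either time, and the blocked fit 0 transporters and 7 and 4 genes. ABCC3 had interaction terms of 0.14 at 8 h (95% interval -0.64 to 0.92) and 0.16 at 24 h (95% interval -0.67 to 0.999). The lowest and highest terms were those of ABCC4 and ABCC5, -0.21 and 0.19 at 8 h and -0.29 and 0.28 at 24 h. The ABCC3 intervals leave room for differences of the size of the ABCC3 change under sorafenib. The 95% intervals of ABCC1 (-0.40 to 0.10 at 8 h, -0.12 to 0.38 at 24 h) did not reach that size. For ABCC5 the interval at 8 h (-0.19 to 0.567) also fell short of it.

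Culture time alone was examined in DMSO cells at 24 h against 8 h. Of the 7 transporters 0 were called with edgeR, where 0.66% of all genes were, and DESeq2 called 0. At an unadjusted p under 0.05 there were 0 transporters and 2257 of the 13948 genes tested. The log2 changes ran from -0.52 for ABCC2 (95% interval -1.12 to 0.089) to 0.16 for ABCC3 (95% interval -0.39 to 0.72).

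The order of the group means differed from gene to gene. Whether neighbours overlap is a description of 2 libraries per group and was not counted over all genes. For ABCC3 it ran from sorafenib at 24 h (15.7 CPM) through sorafenib at 8 h (13.5), the combination at 8 h (12.3), DMSO at 24 h (10.4), DMSO at 8 h (9.09), MMS at 8 h (7.11) and the combination at 24 h (3.01) to MMS at 24 h (1.77). Neighbours among the first 4 of these overlapped, and from DMSO at 24 h on no neighbours did. For ABCC1 the lowest groups were MMS and the combination at 8 h (60.5 and 62.9 CPM), which overlapped, then MMS at 24 h (82.9 CPM) and the combination at 24 h (95.6 CPM), each apart from the next lower. For ABCC5 the combination and MMS at 24 h were highest (79.2 and 71.1 CPM) and overlapped, and the combination and MMS at 8 h were lowest (41.1 and 40.2 CPM) and overlapped. For ABCC2 MMS at 8 h (3.53 CPM) and the combination at 8 h (2.58 CPM) stood first and apart from the groups after them, and all later neighbours overlapped. For ABCG2 the combination and MMS at 24 h were lowest (4.55 and 4.52 CPM), and all neighbours overlapped except combination at 8 h and at 24 h. For ABCC4 and ABCC10 all neighbours in the order overlapped.

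The genes with the most similar pattern were named for the members whose group means spanned at least 1 log2 unit, from 2359 genes with the same span, by Pearson's r over the 8 group means. These are descriptions over 8 points that share treatments and libraries. ABCC3 was most like PITPNM3 (r = 0.992), the acute phase gene SAA2 (r = 0.99) and the collagen gene COL18A1 (r = 0.988). ABCG2 was most like the class II antigen gene HLA-DRA (r = 0.993), the ribosomal S6 kinase gene RPS6KA2 (r = 0.991) and the fibronectin gene FN1 (r = 0.99). ABCC2 was most like TXNIP (r = 0.954), NOTCH1 (r = 0.947) and ZNF134 (r = 0.939). The other 4 spanned less than 1 log2 unit.

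Among 41 other genes of the ABC family, 26 had enough reads to be tested. The E and F subfamilies in this list (ABCE1, ABCF1, ABCF2 and ABCF3) are not transporters. The best known drug exporter of the family, ABCB1, was not among them, with a mean of 0.50 reads per library. Under MMS 1 was higher and 1 lower at 8 h, where 14.5% of all genes were higher and 12% lower. At 24 h 4 were higher and 4 lower, against 15.2% and 16.3% of all genes. The blocked fit called 3 higher and 2 lower at 8 h, and 6 higher and 8 lower at 24 h. Here and below, shares of all genes by direction were not counted for the blocked fit. At 8 h without the block the genes called were the mitochondrial ABCB10 (log2 change 0.38, adjusted p = 0.00689) and the lysosomal peptide transporter ABCB9 (-0.57, adjusted p = 0.0154). At 24 h ABCA2 and the cholesterol exporter ABCA1 fell by 0.82 and 0.60 on the log2 scale (adjusted p = 0.00112 and 0.0472). Also at 24 h ABCF2 and the ribosome recycling factor ABCE1 rose by 0.48 and 0.27 (adjusted p = 0.000812 and 0.0375). The other 4 called at 24 h were ABCC9 and ABCF3, which were higher, and ABCA10 and ABCA13, which were lower, named after their values were seen. The combination gave 2 higher and 2 lower at 8 h (4 and 3 blocked) and 7 higher and 5 lower at 24 h (11 and 6 blocked), with ABCA5 higher by 0.66 and 0.88 (adjusted p = 0.00927 and 0.00124). For the combination here and below, 12.5% of all genes were higher and 11.8% lower at 8 h, and 16.2% and 17.2% at 24 h. Against MMS alone, ABCA1 was lower in the combination at 8 h (-1.14, adjusted p = 0.0341). The median log2 change of the 26 was -0.0042 at 8 h and 0.042 at 24 h of MMS.

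Genes that make or attach glutathione supply the conjugates that ABCC1 and ABCC2 export. The list used here also held genes of glutathione breakdown, among them CHAC1 and GGT5, so its counts do not measure supply alone. Of 25 tested of 26, 5 were higher and 3 lower at 8 h of MMS (7 and 5 blocked), and 7 were higher and 4 lower at 24 h (9 and 6 blocked). Of all genes 14.5% were higher and 12% lower at 8 h, and 15.2% and 16.3% at 24 h. The cystine carrier SLC7A11 rose by 3.0 on the log2 scale at 8 h (adjusted p = 0.000123) and by 1.74 at 24 h (adjusted p = 0.00382). The 2 subunits of the enzyme that starts glutathione synthesis, GCLM and GCLC, rose by 1.6 and 1.06 at 8 h (adjusted p = 2.75e-06 and 2.95e-05), and CHAC1, which degrades glutathione, rose by 3.32 (adjusted p = 2.67e-05). The MMS effect was lower at 24 h than at 8 h by 1.51 for GCLM (-1.51, adjusted p = 0.000321), 1.13 for GCLC (-1.13, adjusted p = 0.00114) and 2.96 for CHAC1 (-2.96, adjusted p = 0.00257). For GGCT the MMS effect was higher at 24 h (0.42, adjusted p = 0.0364). Of the 25, 1 was thus called higher and 3 lower, against 3.53% and 5.6% of all genes. The glutathione-cleaving enzyme GGT5 fell by 1.46 at 24 h (adjusted p = 0.000261). GSTM4 and GGT1 fell by 0.98 and 0.92 at 24 h (adjusted p = 0.0221 and 0.0473). Of the others with few reads or smaller changes, named after their values were seen, GSTM3 was called higher at 8 h. GGT5, GSTK1 and MGST2 were called lower at 8 h, and GSTK1 also at 24 h. Beside SLC7A11, those called higher at 24 h, also named after their values were seen, were GSS, GSTM3, GSTO1, MGST1, GGCT and CHAC2, with log2 changes of 0.37 (GSTO1) to 0.72 (CHAC2). Under the combination 7 were higher and 1 lower at 8 h (10 and 2 blocked), and 7 were higher and 4 lower at 24 h (9 and 5 blocked).

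Regulators described for efflux genes and their marker targets numbered 24, of which 23 were tested. At 8 h of MMS 12 were higher and 2 lower (12 and 5 blocked), and at 24 h 5 were higher and 7 lower (6 and 10 blocked). The shares over all genes were 14.5% higher and 12% lower at 8 h, and 15.2% and 16.3% at 24 h. NFE2L2 itself rose by 0.68 at 8 h (adjusted p = 0.00013) and fell by 0.29 at 24 h (adjusted p = 0.0233), and is named here after its values were seen because the background above turns on it. AHR and RXRA were the 2 called lower at 8 h, and OSGIN1, KEAP1, MAFG and SRXN1 were higher at 24 h beside NQO1. The NFE2L2 targets HMOX1, OSGIN1, TXNRD1 and NQO1 rose by 3.28, 3.18, 2.12 and 1.75 at 8 h (adjusted p = 1.78e-06, 1.2e-05, 1.03e-06 and 1.03e-06). NQO1 remained higher at 24 h by 1.72 (adjusted p = 2.69e-06). In the same libraries at 8 h ABCC1 was lower and ABCC2 was the only 1 of the 7 transporters called higher. The AHR target CYP1B1 fell by 2.97 at 24 h (adjusted p = 5.68e-05), and HIF1A by 1.16 (adjusted p = 0.00704). CYP1A1 (-0.89, adjusted p = 0.0682), AHRR (-1.25, adjusted p = 0.224) and TIPARP (0.080, adjusted p = 0.668) are also AHR targets. They were not called at 24 h and are named after their values were seen. Whether any regulator had a part in the transporter values was not tested. Under the combination 10 were higher and 6 lower at 8 h (11 and 8 blocked), and 5 were higher and 7 lower at 24 h (5 and 12 blocked). Under sorafenib alone 0 were higher and 1 lower at either time, CYP1A1 at 8 h and MAFF at 24 h (-0.77, adjusted p = 0.0342). Of all genes 0.394% were called at 8 h and 0.817% at 24 h. The blocked fit called 1 higher and 5 lower at 8 h, and 1 higher and 4 lower at 24 h.

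The list of carriers, most of which bring drugs and metabolites into cells, held 29 genes, of which 14 were tested. SLC47A1 and SLC47A2 in this list are exporters, and neither was tested. At 8 h of MMS 0 were higher and 4 lower, against 14.5% and 12% of all genes. At 24 h 0 were higher and 5 lower, against 15.2% and 16.3% of all genes. Among the 5 were SLC22A3, SLC22A4 and SLCO2A1, the last with a mean of 5.5 reads per library. The blocked fit called 1 higher and 6 lower at either time. The median log2 change of the 14 was -0.40 at 8 h and -0.10 at 24 h of MMS. The organic anion carriers SLCO4A1 and SLCO3A1 fell by 2.60 and 0.75 at 8 h (adjusted p = 0.00144 and 0.000465) and fell by 2.48 and 1.15 at 24 h (adjusted p = 0.00174 and 4.83e-05). Under the combination SLCO4A1 fell by 3.93 at 8 h and fell by 5.14 at 24 h (adjusted p = 0.000211 and 4.49e-05), and 1 carrier (SLCO4C1, named after its values were seen) was higher and 3 lower at 8 h (1 and 7 blocked) and 0 higher and 5 lower at 24 h (3 and 5 blocked). The folate carrier SLC46A1 and the nucleoside carrier SLC29A2 fell by 0.64 and 0.51 at 8 h of MMS (adjusted p = 0.00442 and 0.0122), and their MMS effect was higher at 24 h than at 8 h by 0.87 and 0.67 (adjusted p = 0.0164 and 0.0383), as was that of ABCC5.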

How the data were processed

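Whole-number counts of reads per gene were deposited for each of the 16 libraries, which the authors made from total RNA with TruSeq libraries. Per the submitters' processing notes the tools were CASAVA 1.8.2, TopHat2 2.0.8b and HTSeq, with the build hg19. The annotation, strand setting and counting mode are not given in the sources used here, so reads shared by ABCC10 and DLK2 cannot be told apart. Each file holds 23228 gene rows, and 5 counter rows were left out.

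Counts were tested with edgeR 4.0.16 (R 4.3.3), with TMM factors (0.954 to 1.06), a filter on low counts (filterByExpr, which left 13948 genes), all 16 libraries in 1 fit with a mean for each group, two-sided quasi-likelihood tests and Benjamini-Hochberg adjustment over all genes tested in each of 12 comparisons, at a threshold of 0.05. The procedure was run on simulated counts with a fixed dispersion and no effect of the title start. That run does not cover libraries that deviate together. Levels are CPM of summed gene rows, without TMM factors. The series text speaks of independent experiments, and the p-values measure the spread between 2 libraries of a group, pooled over groups (8 residual degrees of freedom). Between libraries of 1 group counts differed by 16.0 to 22.4 times sampling noise (chi-square per degree of freedom), so none was counted as a repeat. Libraries whose titles start alike (MDA231 or MDAMB231) deviated together from their group means (r = 0.490 to 0.679 over 28 pairs of groups), and the title start was the replicate block. The labels do not say that a title start marks an experiment.

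Alternatives were DESeq2 1.42.0, other factors, other filters, the block, only the libraries compared and each library left out. Members and gene lists were chosen with earlier results of these data known. The members are all given. Listed genes were named by rule, up to 4 per list and comparison. These were the called genes with the largest change among those with a mean count of at least 50. Listed genes outside this rule were named after their values were seen, among them AHR, RXRA, KEAP1, MAFG, SRXN1, CYP1A1 and SLCO2A1. Promoter windows came from RefSeq (GRCh38.p14) and exon lengths from GENCODE v29 (GRCh38), and no coordinates were converted.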

Additional observations from a re-analysis of the deposited data

Results flagged for a closer look

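The MMS effect on ABCC3 differed between the times by the test of the difference itself: the log2 change at 24 h minus that at 8 h was -2.27 (SE 0.383, edgeR adjusted p = 0.00425), from -0.32 at 8 h to -2.59 at 24 h. The MMS effect on ABCC5 differed in the other direction, by 0.67 (SE 0.174, edgeR adjusted p = 0.0319), from -0.47 at 8 h to 0.20 at 24 h. Within both title starts the ABCC3 difference was negative and the ABCC5 difference positive.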

How the results depend on the processing

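Of 84 log2 changes of the 7 transporters (12 comparisons each), 12 passed the threshold and 5 of these passed in every alternative tried: ABCC1 at 8 h of MMS and of the combination, and ABCC3 at 24 h of both and in the difference of the MMS effect between the times. Over 996 alternative values the sign changed 86 times, at no time for a called change, and no changed sign passed the threshold. The alternative with a mean count of at least 50 has no ABCC2, and DESeq2 gave no adjusted p for ABCC2 between the combination and MMS at 8 h. With 2 libraries per group, leaving out 1 leaves a lone library that is assumed to vary like the other groups. That library has 1 title start and the group it is compared with has both. Without the block the change then also carries any difference between title starts, as seen for ABCG2 and ABCC10 (median ratios 2.07 and 0.75). Such a shift cannot be told apart from instability of the treatment change.

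With the replicate block, the counts of transporters called that moved by more than 1.5 times were 4 for MMS at 24 h, 1 for the combination against MMS at 8 h and 4 for the MMS effect at 24 h minus 8 h. The block moved the counts of all genes called to 6036 and 6730 for MMS (8 h and 24 h), 702 and 1001 for sorafenib, 5514 and 7044 for the combination, 1326 and 283 for the combination against MMS, 7 and 4 for the interactions, 3561 for the MMS effect difference and 1902 for culture time. It changed no other transporter call than those given in the report. With only the libraries compared, 1 transporter was called for MMS at 24 h and 1 for the MMS effect difference, and the counts of all genes were 2708 for MMS at 24 h, 4 and 6 for sorafenib, 1939 for the combination at 8 h, 33 and 5 for the combination against MMS, 754 for the effect difference and 0 for culture time. DESeq2 called 180 and 288 genes for sorafenib, 361 and 87 for the combination against MMS, 1 and 1 for the interactions and 527 for culture time. Without a filter on low counts these were 101 for sorafenib at 8 h, 139 and 43 for the combination against MMS and 1 for the interaction at 24 h, and without normalization factors 1 for the latter. A mean count of at least 50 gave 166 genes for culture time. For the other counts of these alternatives and for all counts with RLE factors, the value was within 1.5 times that reported. The cause was not tested for any of them.

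With single libraries left out, transporters called ranged from 1 to 3 for MMS at 8 h, 1 to 2 for the combination at 8 h, 1 to 2 for the combination at 24 h and 1 to 2 for the MMS effect difference. The lowest count came without DMSO replicate 1 of the same time (8 h for the difference), and in the first, second and last of these also without other single libraries, which the report names by the calls they end. All genes called ranged from 2373 to 2630 for MMS at 8 h, 2450 to 3499 for MMS at 24 h, 5 to 17 and 10 to 74 for sorafenib (8 h and 24 h), 2146 to 3201 and 2875 to 3725 for the combination, 11 to 659 and 3 to 5 for the combination against MMS, 0 to 28 for the interaction at 8 h, 618 to 926 for the MMS effect difference and 0 to 10 for culture time. Of log2 changes that missed the threshold, those of ABCC10 changed sign, with ranges of -0.14 to 0.49 and -0.22 to 0.36 for MMS at 8 h and 24 h and of -0.22 to 0.35 and -0.16 to 0.42 for the combination. ABCG2 ranged from -0.71 to 0.55 for MMS at 8 h and from -0.92 to 0.34 for the combination at 8 h. At 24 h, where its sign held, it ranged from -1.93 to -0.48 for MMS and from -1.71 to -0.46 for the combination. ABCC2 ranged from -0.054 to 0.37 for MMS at 24 h. The ABCC3 interaction ranged from -0.18 to 0.55 at 8 h and from -0.12 to 0.50 at 24 h.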
